A study of Homo sapiens with 12 samples.

Results

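The core circadian clock was described here through 10 genes: BMAL1, CLOCK, PER1, PER2, PER3, CRY1, CRY2, NR1D1, NR1D2 and DBP. These were chosen by name from general knowledge of the clock, with earlier results of these data known. They are 10 of the 60675 gene IDs in the deposited table, of which 30808 had a count, and all 10 were detected in all 12 libraries. RNA was sequenced from SW1783, a line grown from a human astrocytoma, so every library comes from a single line without other cells of the brain. The cells were kept for 24 h with a water extract made from the root of Aconitum carmichaeli Debeaux (ACD) or with its vehicle, PBS with 2% DMSO. The extract was used at 20 µg/mL (low dose), 100 µg/mL (medium dose) and 500 µg/mL (high dose), with 3 libraries in each of the 4 groups. The name of the extract follows the sample titles and treatment labels, because the treatment protocol stored with the samples describes a different herb. The labels do not say whether the 3 libraries of a group came from separate cultures, so the p-values measure the spread between libraries, which may be technical.

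The clock is a feedback loop of transcription. CLOCK and BMAL1 pair and bind E-boxes, short DNA sequences in the promoters of their targets, and raise the transcription of the PER and CRY genes, whose proteins return to the nucleus and block the pair. An auxiliary loop runs through NR1D1 and NR1D2 (REV-ERB alpha and beta), nuclear receptors that are themselves E-box targets and that hold down BMAL1 at ROR elements, while DBP, another E-box target, acts on D-boxes in the promoters of other clock genes. Astrocytes carry such a clock and take part in daily rhythms of the brain.

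At the high dose, 4 of the 10 clock genes rose against vehicle and none fell by the rule for a differentially expressed gene (DEG), which asked for a DESeq2 adjusted p under 0.05 and a fold change over 1.5. They were both REV-ERB genes, BMAL1 and DBP, with NR1D1 2.51-fold and NR1D2 1.91-fold higher. Among all 19453 genes tested at this dose, 18.2% were DEGs, 8.66% higher and 9.57% lower. None of the 10 genes was a DEG at the medium or the low dose. The cells were sampled at a single time, so a shift in the timing of the clock and a change in the mean level of its genes cannot be told apart. RNA came from whole cultures, so a change in the share of cells that express a gene and a change per cell cannot be told apart either.

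The promoters of the 4 genes that rose are shown because the clock acts on its own genes through short elements there. Sequences are from RefSeq on GRCh38.p14 and run 5′ to 3′ on the strand of the gene. Capitals mark matches to the elements searched on both strands, so that AACGTG is CACGTT and TTACATAA is TTATGTAA read on the other strand. NR1D1 (chr17:40100590-40100839, minus strand), NR1D2 (chr3:23945871-23946120, plus strand) and DBP (chr19:48637380-48637629, minus strand) are given as the 250 bases before the start. NR1D2 and BMAL1 have 2 annotated starts each, and the one with more matches is shown. In both genes the other start held no match. Of BMAL1, the 99 bases furthest upstream in the window of its downstream start, which hold no annotated exon (chr11:13277540-13277638, plus strand), and a 30-base stretch just after that start (chr11:13277809-13277838, plus strand) are given.
NR1D1: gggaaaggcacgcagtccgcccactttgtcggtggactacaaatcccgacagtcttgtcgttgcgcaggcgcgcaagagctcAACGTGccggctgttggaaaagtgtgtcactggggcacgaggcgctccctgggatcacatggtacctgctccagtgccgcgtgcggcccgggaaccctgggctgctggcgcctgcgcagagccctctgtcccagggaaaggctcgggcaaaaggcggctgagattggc
NR1D2: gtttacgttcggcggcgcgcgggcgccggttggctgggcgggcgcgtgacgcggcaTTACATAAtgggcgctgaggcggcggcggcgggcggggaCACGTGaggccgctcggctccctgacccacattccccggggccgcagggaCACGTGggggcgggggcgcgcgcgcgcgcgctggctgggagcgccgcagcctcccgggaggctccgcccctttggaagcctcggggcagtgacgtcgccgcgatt
DBP: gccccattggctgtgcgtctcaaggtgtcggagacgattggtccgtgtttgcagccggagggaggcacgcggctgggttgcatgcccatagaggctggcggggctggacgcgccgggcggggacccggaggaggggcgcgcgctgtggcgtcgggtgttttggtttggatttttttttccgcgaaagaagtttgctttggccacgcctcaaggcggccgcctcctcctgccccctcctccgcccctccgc
BMAL1, before the start: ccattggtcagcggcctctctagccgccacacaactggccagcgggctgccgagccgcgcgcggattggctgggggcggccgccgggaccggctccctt
BMAL1, after the start: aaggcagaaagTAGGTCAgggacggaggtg

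The elements searched were the E-box CACGTG, its variant CACGTT, the D-boxes TTATGTAA and TTACGTAA, the ROR element core TAGGTCA and the cyclic AMP response element TGACGTCA. The window ran from 250 bases before to 50 bases after each start, and all 10 genes matched, with 15 promoters between them. Each gene held a given element in 1 promoter at most. The E-box was found in 2 of the 15 promoters, against 7.26% of 35116 RefSeq promoters of the same length. NR1D2 held a pair of E-boxes, with first bases at positions -155 and -105 from the start, and PER1 held an E-box at -173. The variant CACGTT was found in 5 of the 15 (those of CLOCK, PER2, CRY1, CRY2 and NR1D1), against 5.34% of all promoters. A D-box stood in 3 of the 15 (PER2, PER3 and NR1D2), against 1.01% of all promoters. The ROR element core, the sequence that REV-ERB and ROR receptors read, stood in 2 of the 15, in BMAL1 at position 31 after the start and in CRY2 at -65, against 1.85% of all promoters. The cyclic AMP element was in 0 of the 15 and in 1.85% of all promoters. DBP held none of these letters in its window. No matches overlapped each other. A match of letters describes the sequence and was not tested as a binding site.

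Total counts lay between 18863863 and 24200576 per library. Normalised counts are counts divided by the DESeq2 size factor of their library. Of 9 astrocyte markers, 4 had a mean normalised count of at least 10 (VIM, GJA1, SOX9 and SLC1A3), while the defining genes AQP4 and ALDH1L1 were at 3 counts or fewer in every library. The summed astrocyte markers went from between 91630 and 99491 with vehicle to between 112435 and 114302 at the high dose. VIM made up most of that sum, with a mean of 88412 and then 108050, while SLC1A3 went from 690.1 to 126, GJA1 from 4914 to 3727 and SOX9 from 1434 to 1206. At the same doses the 3 epithelial markers went from 4473 to 4675 down to 1510 to 1649, the 3 macrophage markers from 335 to 348 down to 101 to 142, the 3 neuron markers from 1311 to 1372 down to 998 to 1064 (SNAP25 from 704 to 167, but SYT1 from 638 up to 868), the 3 oligodendrocyte markers from 138 to 172 up to 260 to 263, and the 3 endothelial markers from 15 to 21 to between 7 and 19. MOG, AIF1, CDH5 and CDH1 were at 3 counts or fewer throughout. The 2 mitochondrial ribosomal RNA genes held 0.913% to 0.960% of the counts with vehicle, 3.01% to 3.33% at the low dose, 7.67% to 8.05% with the medium dose and 5.76% to 6.06% with the high dose. The part of these shifts in the results was not tested.

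Of the 10 genes, CLOCK had by far the highest level per kb of exon with vehicle, at 3140 ± 83.9 normalised counts per kb (SD, n = 3). NR1D1 followed at 349.9 ± 8.17 per kb and NR1D2 at 343 ± 4.15. CRY1 stood at 152 ± 5.57 per kb, PER3 at 149 ± 0.444 and PER1 at 94.2 ± 3.66. PER2 at 45.1 ± 2.58 per kb, CRY2 at 44.5 ± 4.02, BMAL1 at 21.6 ± 1.34 and DBP at 8.70 ± 0.432 closed the order. The neighbours NR1D1 and NR1D2, CRY1 and PER3, and PER2 and CRY2 did not differ beyond their spread. CLOCK and its partner BMAL1 thus stood near the opposite ends of the order. At the high dose the place of the REV-ERB genes parted, with NR1D1 at 878 ± 26.7 per kb and NR1D2 at 654 ± 21.2.

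**Figure D1:**
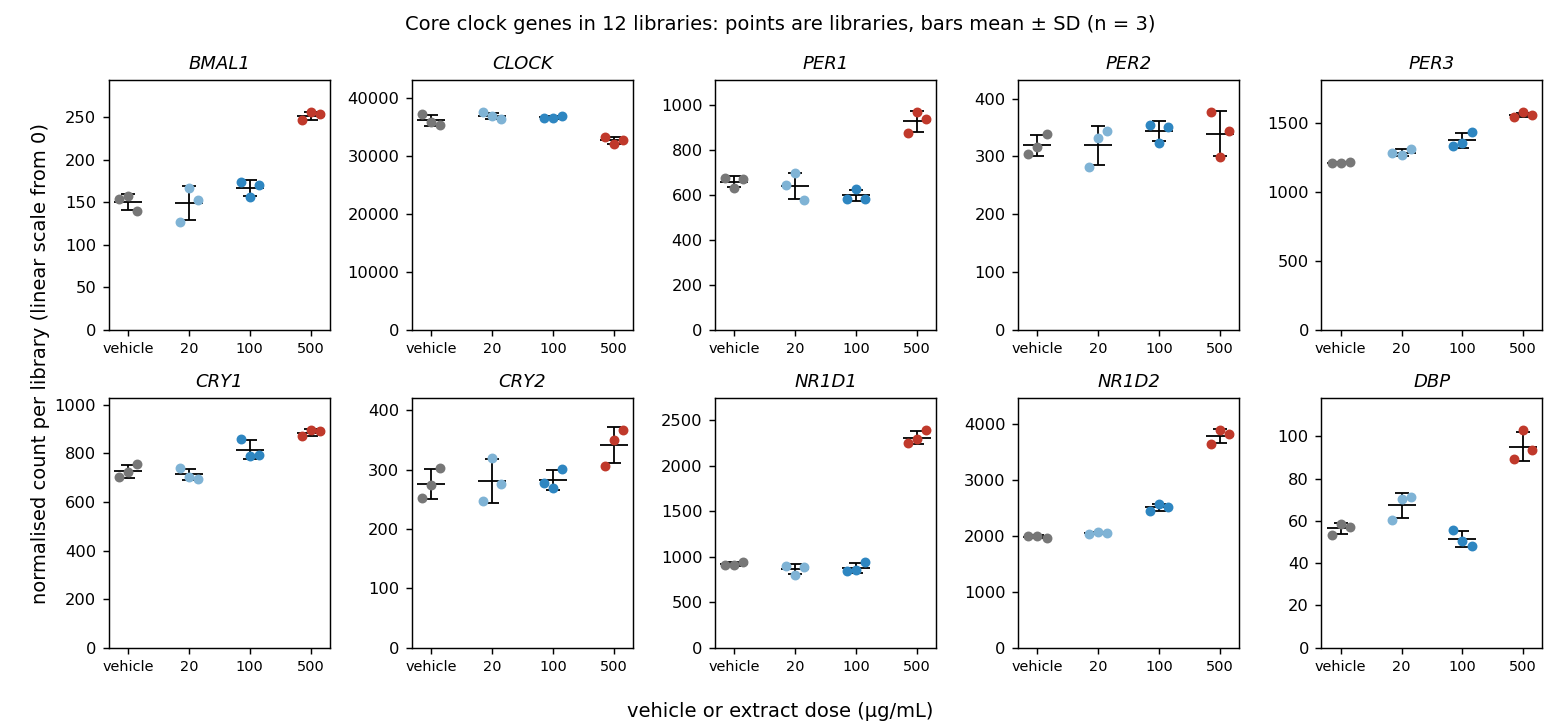
Normalised counts of the 10 core clock genes (vertical axis, each panel on its own scale) in each library of the 4 groups (horizontal axis), with points for libraries and bars for the group mean ± SD (n = 3). The high dose libraries of NR1D1 lie between 2248 and 2385 and those of the other groups between 799.7 and 945, whereas the groups of PER2 overlap.

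NR1D1, which encodes REV-ERB alpha, a repressor of BMAL1, lies on chromosome 17 from 40092793 to 40100589 on the minus strand (ENSG00000126368, GRCh38). It held 909.9, 906 and 945 normalised counts in the vehicle libraries, 896, 799.7 and 890.5 at the low dose, 840.4, 851 and 939 with the medium dose, and 2248, 2290.2 and 2385 at the high dose. Libraries of the high dose stood apart from all others, and the medium dose libraries overlapped with vehicle. The mean rose from 920.3 ± 21.5 to 2308 ± 70.1 (SD, n = 3), a log2 fold change of 1.33 (SE 0.0584, adjusted p 1.26e-112 in DESeq2). At the medium dose the log2 fold change was -0.07 (SE 0.0625, adjusted p 0.458 in DESeq2) and at the low dose -0.09 (SE 0.0626, adjusted p 0.538). From the medium to the high dose NR1D1 rose by a log2 fold change of 1.40 (SE 0.0589, adjusted p 7.73e-122 in DESeq2). The high dose libraries were thus set apart by the step from 100 to 500 µg/mL. With scaling by total counts, tried after the data were seen, the medium dose value was -0.18 (adjusted p 0.0144 in DESeq2). Exons of the opposite strand cover 18.0% of the exon bases of NR1D1, with the largest overlap from THRA, the thyroid hormone receptor gene. It is not stated whether the counting used strand. THRA went the other way, from 896 ± 60.8 normalised counts to 692 ± 46.7 (log2 fold change -0.37, SE 0.0732, adjusted p 1.98e-06 in DESeq2).

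NR1D2, the gene of REV-ERB beta, lies on chromosome 3 from 23945286 to 23980617 on the plus strand (ENSG00000174738) and overlaps no exon of the opposite strand. Its vehicle libraries held 2004, 2000.1 and 1961 normalised counts, its low dose libraries 2043, 2064 and 2063, its medium dose libraries 2445, 2576 and 2524, and its high dose libraries 3654, 3891 and 3828. The 4 groups did not overlap and stood in the order of dose. NR1D2 rose at the high dose by a log2 fold change of 0.93 (SE 0.0392, adjusted p 7.47e-123 in DESeq2). The medium dose difference was 0.34 on the log2 scale (SE 0.0404, adjusted p 1.67e-15 in DESeq2), a 1.27-fold difference that stayed under the fold threshold. At the low dose it was 0.05 (SE 0.0412, adjusted p 0.656 in DESeq2). The step from the low to the medium dose was 0.29 (SE 0.0404, adjusted p 2.56e-11 in DESeq2) and the step from the medium to the high dose 0.59 (SE 0.0384, adjusted p 7.39e-52 in DESeq2), which is 1.51-fold and barely past the fold threshold. NR1D2 thus differed from vehicle at a dose at which NR1D1 gave no detectable difference. A test between the genes was not run.

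BMAL1, the activator that the REV-ERB proteins hold down, lies on chromosome 11 from 13276652 to 13387266 on the plus strand (ENSG00000133794). It held 154, 157 and 139 normalised counts with vehicle, 127, 167 and 153 at the low dose, 174, 157 and 171 with the medium dose, and 247, 256 and 253 at the high dose. All 3 high dose libraries lay above the rest, which overlapped among themselves. BMAL1 rose at the high dose from 150.0 ± 9.26 to 252 ± 4.82, a 1.68-fold change (log2 fold change 0.75, SE 0.135, adjusted p 1.49e-07 in DESeq2). BMAL1 and its repressor genes NR1D1 and NR1D2 were therefore all higher in the same libraries. At the medium dose BMAL1 differed by 0.15 on the log2 scale (SE 0.140, adjusted p 0.463 in DESeq2).

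CLOCK, the partner of BMAL1, was the sole member that was lower at the high dose at an adjusted p under 0.05. The gene lies on chromosome 4 from 55427903 to 55546909 on the minus strand (ENSG00000134852). Its libraries held 37305, 35845 and 35476 normalised counts with vehicle, 37603, 36914 and 36500 at the low dose, 36646, 36560 and 37005 with the medium dose, and 33253, 32206 and 32728 at the high dose. The high dose libraries lay below all others. The difference from vehicle was -0.15 on the log2 scale (SE 0.0221, adjusted p 2.38e-10 in DESeq2), far under the fold threshold. With total count scaling it was -0.26.

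The PER genes encode the repressors that pair with CRY proteins, and none of the 3 was a DEG against vehicle at any dose. PER1 (ENSG00000179094, chromosome 17, 8140472 to 8156506, minus strand) held 675, 629.9 and 673 normalised counts with vehicle, 645, 697 and 579 at the low dose, 584, 628 and 584 with the medium dose, and 875, 968.5 and 940.0 at the high dose. Those of the high dose were above all others, and the medium dose libraries were below those with vehicle. PER1 differed from vehicle at the high dose by 0.50 on the log2 scale (SE 0.0758, adjusted p 3.71e-10 in DESeq2), under the fold threshold, and at the medium dose by -0.14 (SE 0.0786, adjusted p 0.190). Against the medium dose, PER1 rose at the high dose and was a DEG, with a log2 fold change of 0.63 (SE 0.0767, adjusted p 2.26e-15 in DESeq2). The medium dose difference depended on the scaling, being -0.25 with total counts (adjusted p 0.00578 in DESeq2).

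PER3 (ENSG00000049246, chromosome 1, 7784291 to 7845177, plus strand) had a higher mean with each dose, but not every step passed a test. From the low to the medium dose the log2 difference was 0.10 (SE 0.0504, adjusted p 0.182 in DESeq2). From the medium to the high dose it was 0.18 (SE 0.0494, adjusted p 0.000898 in DESeq2). Its libraries held 1211, 1212 and 1218 normalised counts with vehicle, 1281, 1265 and 1312 at the low dose, 1331, 1359 and 1435 with the medium dose, and 1545, 1578 and 1557 at the high dose. The 4 groups did not overlap. The log2 difference from vehicle was 0.08 (SE 0.0509, adjusted p 0.476 in DESeq2) at the low dose, 0.18 (SE 0.0506, adjusted p 0.00208) with the medium dose and 0.36 (SE 0.0499, adjusted p 2.36e-12) at the high dose. With total counts the medium dose value was 0.07 and no longer passed (adjusted p 0.301 in DESeq2), nor did it without medium dose replicate 3 (0.15, adjusted p 0.0570). Exons of the opposite strand cover 16.6% of the exon bases of PER3. The gene with the largest overlap among them, UTS2, had at most 1 count in a library.

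PER2 (ENSG00000132326, chromosome 2, 238244044 to 238290102, minus strand) gave no detectable difference at any dose. It held 303, 315 and 339 normalised counts with vehicle, 281, 331.5 and 344 at the low dose, 355, 323 and 351 with the medium dose, and 376, 299 and 343 at the high dose. The groups overlapped throughout. The high dose difference was 0.08 on the log2 scale with a 95% interval from -0.13 to 0.30 (adjusted p 0.583 in DESeq2). Its sign was not stable, since total count scaling gave -0.03.

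The cryptochrome genes encode the other repressors of the loop and were higher at the high dose without reaching the fold threshold. CRY1 (ENSG00000008405, chromosome 12, 106991364 to 107093549, minus strand) held 702, 721 and 755 normalised counts with vehicle, 741, 704 and 696 at the low dose, 859, 790.3 and 792 with the medium dose, and 869, 894 and 892 at the high dose. Vehicle and low dose libraries overlapped, and the medium and high dose libraries lay above both. CRY1 differed by 0.29 on the log2 scale at the high dose (SE 0.0656, adjusted p 4.29e-05 in DESeq2) and by 0.16 at the medium dose (SE 0.0662, adjusted p 0.0470). The medium dose value was 0.05 with total counts (adjusted p 0.588 in DESeq2) and had an adjusted p of 0.113 with the replicate number as a block in DESeq2. It did not pass when any 1 of the 12 libraries was left out (adjusted p 0.0566 to 0.245), without independent filtering (0.102) or in a fit of these 2 groups alone (0.0845).

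CRY2 (ENSG00000121671, chromosome 11, 45847118 to 45883248, plus strand) held 252, 273 and 302 normalised counts with vehicle, 246, 319 and 276 at the low dose, 277, 268 and 301 with the medium dose, and 307, 350.5 and 366 at the high dose. The high dose libraries lay just above those with vehicle and overlapped with the low dose. The difference at the high dose was 0.31 on the log2 scale (SE 0.118, adjusted p 0.0207 in DESeq2), and it no longer passed with total counts (0.20, adjusted p 0.168). It also did not pass without vehicle replicate 1 (adjusted p 0.121) or 2 (0.0674) or without high dose replicate 2 (0.0787) or 3 (0.114).

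DBP, the PAR bZIP factor that carries clock output to D-boxes, was the least expressed of the 10 genes. It lies on chromosome 19 from 48630030 to 48637379 on the minus strand (ENSG00000105516). Its libraries held 53.3, 58.7 and 57.2 normalised counts with vehicle, 60.6, 70.4 and 71.2 at the low dose, 55.6, 50.3 and 48.1 with the medium dose, and 89.1, 103 and 93.5 at the high dose. The high dose libraries lay above all others, while the low dose libraries lay above and the medium dose libraries within or below the range of the vehicle. DBP rose at the high dose by a log2 fold change of 0.76 (SE 0.209, adjusted p 0.000924 in DESeq2), or 1.69-fold, and from the medium to the high dose by 0.90 (SE 0.213, adjusted p 0.000116 in DESeq2). Exons of the opposite strand cover 10.2% of the exon bases of DBP, with the largest overlap from SPHK2. At the high dose SPHK2 differed from vehicle by 0.17 on the log2 scale (SE 0.0931, adjusted p 0.135 in DESeq2). At the low dose DESeq2 gave DBP and BMAL1 no adjusted p, since it left out genes with a mean under 263, and their unadjusted p there was 0.242 and 0.925.

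**Figure D2:**
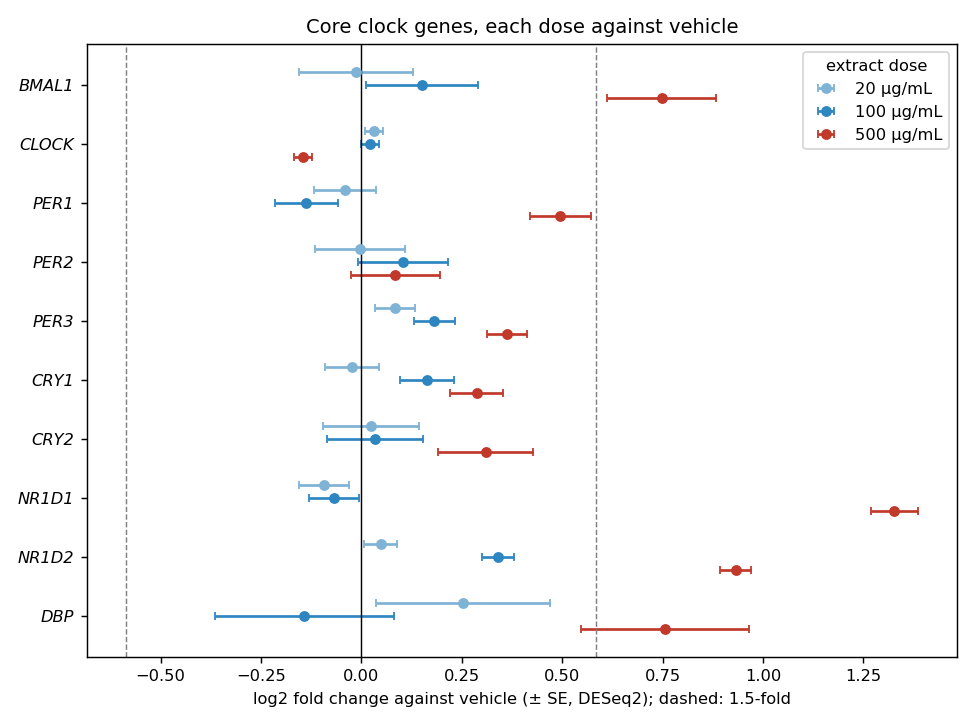
Log2 fold change against vehicle (horizontal axis, with bars for the SE from DESeq2) of the 10 core clock genes (vertical axis) at the 3 doses, with dashed lines at a fold of 1.5. At the high dose NR1D1, NR1D2, DBP and BMAL1 lie past the line, and at the low and medium doses no gene does.

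Counted over the list, 9 of the 10 genes passed an adjusted p under 0.05 at the high dose without regard to size, with 8 higher (with CRY2, which 4 single libraries each decided) and CLOCK lower, against 46.5% of all genes tested (23.9% higher and 22.6% lower). The high dose and vehicle libraries did not overlap for the same number of genes, 9, against 60.4% of all genes tested. The median log2 fold change of the 10 genes was 0.43 and that of all genes tested -0.01. At the medium dose 0 were DEGs, against 3.81% of all genes tested, with 0 by the edgeR quasi-likelihood test as well. An unadjusted DESeq2 p under 0.05 was found for 3, against 5414 of all 14082 genes tested. These 3 (NR1D2, PER3 and CRY1, the last lost without any 1 library) also passed the adjusted p alone, against 29.5% of all genes tested, and the median was 0.07. At the low dose 0 were DEGs, against 0.118% of the genes tested, with 0 by edgeR. An unadjusted DESeq2 p under 0.05 was found for 0, against 1317 of all 9304 genes tested. The median log2 fold change of the 10 genes was 0.01. A likelihood ratio test in DESeq2 found 8 of the 10 genes to differ among the 4 groups, against 45.8% of all genes tested. PER2 (adjusted p 0.817) and CRY2 (adjusted p 0.0521) did not pass. All 3 dose comparisons share the vehicle libraries.

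The step from the medium to the high dose held 5 DEGs among the 10 genes, NR1D1, DBP, PER1, BMAL1 and NR1D2, all higher at the high dose. Among all genes tested in this step 10.2% were DEGs and 4.58% were higher DEGs, and the median log2 fold change was 0.43 for the 10 genes and -0.01 for all. Without high dose replicate 2 the count was 3, since NR1D2 and BMAL1 then fell short of the fold threshold, and it was 4 without medium dose replicate 1 (NR1D2 lost) or medium dose replicate 2 (BMAL1 lost). The step from the low to the medium dose held 0 DEGs, against 1.94% of all genes tested, with 0 by edgeR. An unadjusted DESeq2 p under 0.05 was found for 2, against 4001 of all 14082 genes tested. These 2 were NR1D2 and CRY1, which passed the adjusted p alone (against 18.9% of all genes tested), with CRY1 higher by 0.19 on the log2 scale (SE 0.0665, adjusted p 0.0300 in DESeq2).

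Around these 10 genes, 23 further genes of the clock pathway were examined by role, and at the high dose 7 rose and 2 fell, which made 9 DEGs, beside the 18.2% of all genes tested that were DEGs (8.66% higher and 9.57% lower). Their median log2 fold change was 0.29. Without the fold threshold 14 passed, 12 higher and 2 lower, beside 46.5% of all genes tested (23.9% higher and 22.6% lower).

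Among the activators, 1 of 2 partners or paralogs was a DEG. NPAS2, which can stand in for CLOCK as the partner of BMAL1, held 153, 155 and 167 normalised counts with vehicle, 153, 169 and 158 at the low dose, 265, 241 and 296 with the medium dose, and 486, 500.0 and 522 at the high dose. The medium and high dose libraries each stood above all libraries of lower dose. NPAS2 rose 3.18-fold at the high dose (log2 fold change 1.67, SE 0.115, adjusted p 1.72e-46 in DESeq2) and 1.69-fold at the medium dose (0.76, SE 0.120, adjusted p 4.94e-09). Its level per kb of exon went from 12.6 to 40.2, while that of CLOCK was 2838 ± 45.4 at the high dose.

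RORA, a receptor that acts on the same elements as REV-ERB in the opposite sense, was a DEG. It held 43.0, 67.5 and 42.7 normalised counts with vehicle and 82.2, 82.0 and 80.4 at the high dose, a log2 fold change of 0.66 (SE 0.234, adjusted p 0.0116 in DESeq2). It was lost as a DEG without vehicle replicate 1 or 3 and with total count scaling.

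Further repressors of the CLOCK and BMAL1 pair held 2 DEGs among 5. BHLHE40 (DEC1), which competes for E-boxes, went from 3324, 3337 and 3371 normalised counts with vehicle to 6699, 6560 and 6828 at the high dose (log2 fold change 1.00, SE 0.0307, adjusted p 1.25e-231 in DESeq2). CIART (CHRONO), which binds BMAL1, went from 193, 206 and 193 to 384, 391 and 384 (0.97, SE 0.117, adjusted p 9.83e-16 in DESeq2). In both genes the high dose libraries stood above those with vehicle. Exons of the opposite strand cover 12.8% of the exon bases of BHLHE40, with the largest overlap from an antisense gene.

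The D-box factors moved in both directions. NFIL3 (E4BP4), the repressor that opposes DBP at D-boxes, held 423, 411 and 406 normalised counts with vehicle, 464, 473 and 486 at the low dose, 632, 624 and 609 with the medium dose, and 1035, 1083 and 1044 at the high dose. Its 4 groups stood in the order of dose without overlap. NFIL3 rose by a log2 fold change of 1.35 (SE 0.0710, adjusted p 3.86e-79 in DESeq2) at the high dose and 0.59 (SE 0.0742, adjusted p 7.72e-14) at the medium dose, the latter at the edge of the fold threshold. HLF, an activator of the same family as DBP, fell from 118, 140.2 and 131 to 75.3, 85.7 and 78.2 with the medium dose and 48.6, 55.0 and 49.6 with the high dose. Its log2 fold change was -1.34 (SE 0.194, adjusted p 2.55e-11 in DESeq2) at the high dose and -0.70 (SE 0.181, adjusted p 0.000776) at the medium dose. DBP and HLF, which belong to the same family, thus went in opposite directions at the high dose.

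Among 7 modifiers of clock proteins, CSNK1E, the kinase CK1 epsilon that phosphorylates PER proteins, rose from a mean of 2218 with vehicle to 3724 (log2 fold change 0.75, SE 0.0414, adjusted p 3.91e-71 in DESeq2). USP2, a deubiquitinase of clock proteins, fell from 79.9, 83.2 and 97.8 to 53.3, 60.4 and 58.9 (log2 fold change -0.59, SE 0.204, adjusted p 0.00963 in DESeq2). USP2 was lost as a DEG without vehicle replicate 3 or high dose replicate 1. Exons of the opposite strand cover 25.2% of its exon bases, with the largest overlap from an antisense gene. Of 3 clock-controlled outputs, NAMPT, the rate-limiting enzyme of the NAD salvage route, rose most, from 7062, 7038 and 6836 normalised counts to 20630, 21939 and 21870 (a log2 fold change 1.62, SE 0.0315, adjusted p in DESeq2 below the smallest number the software holds).

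At the medium dose 3 of the 23 genes were DEGs, NPAS2 and NFIL3 higher and HLF lower, beside 3.81% of all genes tested, and 8 passed the adjusted p alone, beside 29.5%. At the low dose 0 were DEGs (0.118% of the genes tested), with 0 by edgeR. An unadjusted DESeq2 p under 0.05 was found for 3 there, beside 1317 of all 9304 genes tested. The 1 gene that passed the adjusted p alone there (against 3.29% of the genes tested), named after its values were seen, was KLF9, a transcription factor under clock and glucocorticoid control. It held 1343, 1347 and 1354 normalised counts with vehicle and 1067, 1136 and 1188 at the low dose (log2 difference -0.26, SE 0.0525, adjusted p 0.000146 in DESeq2). At the high dose it was higher than with vehicle, by 0.32 (SE 0.0504, adjusted p 8.25e-10 in DESeq2), so its difference changed sign between these doses.

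The genes whose pattern over the 12 libraries was most like that of NR1D1 were CDKN1A (Pearson r 0.994), TRIM11 (0.993), ZFP28 (0.993), KCTD9 (0.992) and ZC3H12C (0.992), out of 10726 protein-coding genes with a mean of at least 100 normalised counts. CDKN1A, the cell cycle inhibitor p21, went from a mean of 449 with vehicle to 400.3 at the low dose, 396 with the medium dose and 1216 with the high dose. Like NR1D1, these 5 genes had means below that of the vehicle at the low and medium doses and above it at the high dose. The libraries share the dose, so many genes with a step at the high dose correlate, and the values are a description.

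CLOCK was among the most counted genes of the table, 39th by mean count and 160th per kb of exon of 17154 protein-coding genes, with a mean of 35670 normalised counts. Its level was therefore set beside that of its neighbours on chromosome 4, a window chosen after the values were seen. Within 3000 kb towards higher coordinates lay 15 protein-coding genes with a mean count of at least 10. Their median level was 827 per kb, against 110 for all 12848 such genes, and 9 of the 15 were above the 90th percentile, against 13.4% of all. They included PAICS at 8207 per kb and PPAT at 2017 per kb, neighbours that both encode enzymes of purine synthesis, SRP72 at 9118 and EXOC1 at 2523. Towards lower coordinates 10 such genes had a median of 88.4 per kb, and 2 of them, TMEM165 and CHIC2, were above the 90th percentile. PDGFRA at 42.2 per kb, KIT at 80.4 and KDR at 96.4, receptor kinases on that side, were below the median of all genes. SRD5A3 at 386 per kb and SCFD2 at 201, on the same side, were above it. All these levels are means over the 12 libraries. At the high dose 2 of the 10 genes towards lower coordinates were DEGs, PDGFRA and KIT (log2 fold change -1.40 and -1.09). Towards higher coordinates 2 of the 15 were DEGs, CRACD (1.685) and HOPX (-0.73). Of all genes tested at this dose, 18.2% were DEGs. DNA copy number was not analysed here.

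**Figure D3:**
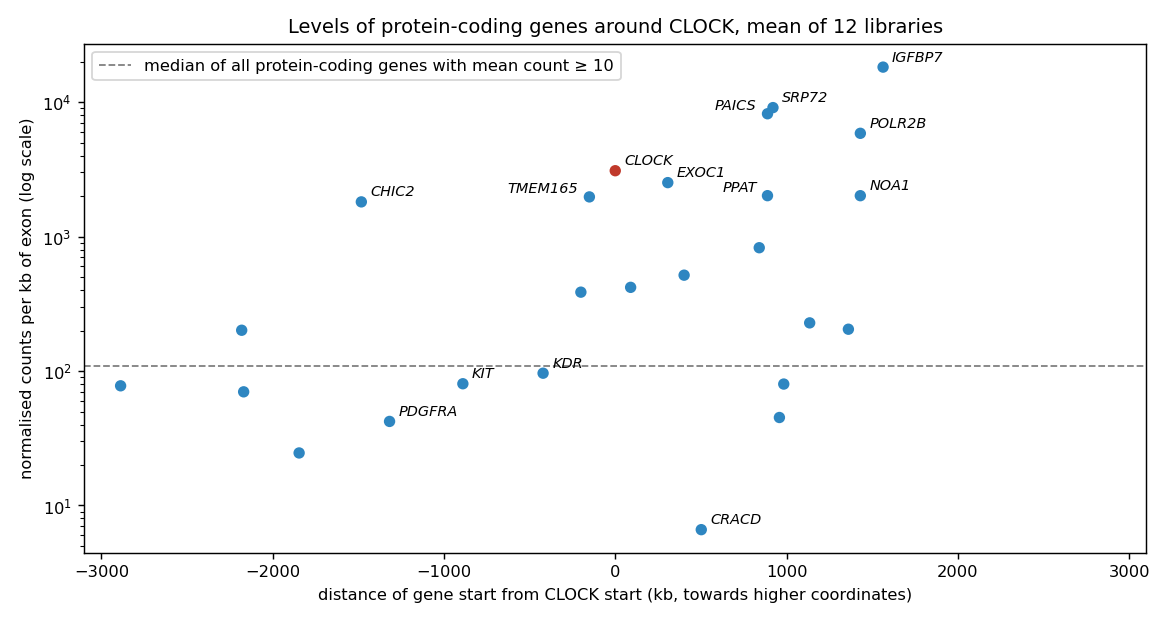
Mean level over the 12 libraries in normalised counts per kb of exon (vertical axis, log scale) of protein-coding genes around CLOCK against the distance of their starts from that of CLOCK in kb (horizontal axis), with a dashed line at the median of all protein-coding genes with a mean count of at least 10. CLOCK at 3093 per kb and most genes to its right lie above the line. To its left PDGFRA, KIT and KDR lie below it, and TMEM165 and CHIC2 lie above it.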

How the data were processed

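RNA sequencing data of 12 libraries were used. Per the submitters' processing notes, reads were checked with FastQC 0.11.9, trimmed with Trim Galore 0.6.5, aligned with STAR 2.7.3a to GRCh38 and counted with RSEM 1.3.3. The authors deposited 1 table of expected counts per gene, in which reads that match several genes are shared out, and 8.75% of its values were not whole. It is not stated whether counting used strand or whether poly(A) selection was used. Groups and replicate numbers came from the titles and treatment labels.

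The expected counts were rounded here and fitted in R 4.3.3 with DESeq2 1.42.0, using the 12 libraries together and group as the only term. The two-sided Wald test was adjusted by Benjamini-Hochberg over all genes tested, with independent filtering at 0.05, and a DEG needed an adjusted p under 0.05 and a fold over 1.5. Genes with a mean normalised count under 1.72 (high dose), 18.3 (medium dose) or 263 (low dose) had no adjusted p. The likelihood ratio test compared the 4 groups. With totals between 18863863 and 24200576 counts, the precision of each gene is given by its SE. Replicate pairs differed by a chi-square of 1.99 to 3.55 per degree of freedom, so all libraries were kept as separate. Levels per kb are normalised counts divided by the exon bases of the gene in GENCODE release 44 (GRCh38), which held 56558 of the 60675 IDs and gave the coordinates. The length that RSEM used was not used here. The DESeq2 and edgeR steps were tested on simulated data.

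The 10 clock genes were all named. Of 23 other clock genes, those called at the high dose were named with values and the rest counted (an item among them is not reported here), and 5 genes most like the member with the largest change were listed. The genes, lists, tests and alternatives were chosen with earlier results of these data known. The window around CLOCK and the scaling by total counts were chosen after values were seen. Alternatives were the edgeR 4.0.16 quasi-likelihood test, TMM size factors, filterByExpr, no independent filtering, fits of the compared groups only, a replicate block, no fold threshold and leaving out each library.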

Additional observations from a re-analysis of the deposited data

How the results depend on the processing

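Without the fold threshold the number of core clock genes called was 9 with the high dose and 3 with the medium dose. It was 8 for the high against the medium dose, where 6738 of all 16467 genes tested passed by this rule. For the medium against the low dose it was 2. Of the 23 other clock genes, 14 were called at the high, 8 at the medium and 1 at the low dose. With each library left out in turn, the core clock genes called numbered 4 at the high dose and 0 at the medium and low doses in every case, 3 to 5 for the high against the medium dose, 0 for the medium against the low dose, and 8 to 9 among the 4 groups. The other clock genes called numbered 7 to 9 with the high dose, 2 to 3 with the medium dose and 0 with the low dose. NFIL3 was lost at the medium dose without vehicle replicate 2 or 3 or medium dose replicate 1 or 2, and with total count scaling. CRY2 passed among the 4 groups with edgeR, TMM factors, filterByExpr, and without vehicle replicate 3, low dose replicate 2 or high dose replicate 1. Among genes with a mean count of at least 10, total count scaling gave a median log2 fold change of -0.11 at the high dose. The median was -0.11 at the medium and -0.03 at the low dose. With DESeq2 size factors these medians were 0.002 (high), -0.0008 (medium) and 0.003 (low). Total count scaling kept the 4 core clock genes called at the high dose, with BMAL1 at 0.63, NR1D1 at 1.21, NR1D2 at 0.82 and DBP at 0.64. It called RORB, which edgeR and filterByExpr also called, and dropped RORA. With the replicate number as a block, 4 core clock genes were called at the high dose, 0 at the medium and low doses, 5 for the high against the medium dose, 0 for the medium against the low dose and 8 among the 4 groups, and of the other clock genes 9, 3 and 0 at the high, medium and low doses. Libraries with the same number did not deviate together, with correlations of -0.12 to 0.22 over 18 pairs, of which 5 were over 0.1, so the numbers were not taken as a pairing. Of 600 values of single core clock genes under an alternative, 592 stayed on their side of the call and 8 passed only for want of a fold threshold. The sign changed in 17 of the 600, all of them genes that were not called, with 11 values of the low, 5 of the medium and 1 of the high dose. CLOCK at the medium dose was 1 of them, at -0.09 with total count scaling (adjusted p 0.000143 in DESeq2) against 0.02. BMAL1 and DBP could not be judged at the low dose with independent filtering, and at this depth small changes in DBP, with 48.1 to 103 counts, were not detectable.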
